A study of Mus musculus with 10 samples.

Results

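The genes described here encode, in the nucleus, the subunits of the mitochondrial machinery of oxidative phosphorylation. They were taken by symbol from the protein-coding genes of the GENCODE annotation on the mouse build GRCm38, and 86 of the 47719 gene identifiers in the files met the rule. The rule took the Nduf subunit genes, Sdha to Sdhd, the Uqcr genes, Cyc1, Cycs, the Cox4i to Cox8 genes and the Atp5 genes. It used symbols and no measured value, but it was set with earlier results of these data known. By complex there were 35 genes of complex I, 4 of complex II, 9 of complex III, 1 for cytochrome c, 20 of complex IV and 16 of complex V, plus Atp5s, a factor related to ATP synthase that is kept apart from its subunits.

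RNA-seq had been made from 10 libraries of splenic plasma cells, 5 of IgM cells and 5 of IgG1 cells, and the question addressed is how these cells differ by antibody class. All cells came from transferred donor B cells with the S1PR2-CreERT2, Ai14 and B1-8germ alleles, so both groups share these alleles, the wild-type hosts and every treatment. S1PR2-CreERT2 is a Cre recombinase that tamoxifen switches on in cells using the S1pr2 promoter, chiefly germinal centre B cells, Ai14 is a Cre-dependent tdTomato reporter, and B1-8germ is an immunoglobulin heavy chain allele that favours binding of the hapten NP. Day 0 was immunization of the hosts with NP-CGG in alum, tamoxifen followed on days 5 and 6, and donor tdTomato+ cells were sorted on day 10 as IgM or IgG1 plasma cells. The sources used here state neither age, sex nor pooling of the animals. They also do not say that the 5 libraries of a group are separate animals, and p-values thus cover only library to library spread, which may be technical. The groups are single sorted classes from 1 transgenic B cell source and stand for no other plasma cells.

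Oxidative phosphorylation makes most of the ATP of a respiring cell. Complex I takes electrons from NADH and complex II takes them from succinate, ubiquinone carries them to complex III, cytochrome c carries them on to complex IV, and complex IV passes them to oxygen, while complexes I, III and IV pump protons that complex V, the ATP synthase, lets back to make ATP. Nuclear genes encode all of complex II and most subunits of the other complexes, and the mitochondrial DNA encodes the rest. Plasma cells secrete antibody in bulk, and their mitochondria supply ATP for that work.

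Library depth, estimated from the steps between low values, was 26860000 to 31170000 fragments for IgM and 26380000 to 36840000 for IgG1 libraries, and 15121 to 15800 and 13286 to 13961 genes were above 0. Every IgG1 library thus had fewer genes above 0 than any IgM library, although the depth ranges overlapped. This difference moves with the group, and its part in the results below was not tested. Heavy chain RNA went with the sort labels in direction: Ighm averaged 85380 ± 3310 FPKM (a fragment count per unit of transcript length and of library size) in IgM and 1170 ± 85.5 in IgG1 cells, and Ighg1 averaged 14970 ± 4280 and 93810 ± 8149 (SD, n = 5 each). Ighg1 ran from 9465 to 19240 FPKM in the IgM libraries, and its source there was not tested. All 7 plasma cell markers on the list were expressed, and 4 of them, Tnfrsf17, Jchain, Slamf7 and Prdm1, were lower in every IgG1 library than in any IgM library. This held for 1316 of the 9900 genes tested below. Xbp1, Sdc1 and Irf4 averaged 2928, 284 and 65.5 FPKM in IgM against 3194, 258 and 55.7 FPKM in IgG1 cells. In the limma test described below, Xbp1 was called higher in IgG1 cells and Sdc1 and Irf4 lower (adjusted p = 0.0104, 0.0468 and 0.0496). The list summed to 40100 to 44320 FPKM in IgM and 23480 to 26920 FPKM in IgG1 libraries. Of 9 mature B cell markers 4 reached a mean of 1 FPKM and 3 were lower in IgG1 cells, where 20.2% of all tested genes were lower. Their sums were 119 to 143 and 79.5 to 97.2 FPKM, and Pax5 was at most 0.336 FPKM in any library. Sums of the T cell list were 41.4 to 60.8 and 32.8 to 39.3 FPKM, most of it Cd28, which fell from 45.9 to 32.2 FPKM; Trac fell from 2.37 to 0.201 FPKM, Cd4 rose from 0.280 to 1.87 FPKM, and Cd3d, Cd3e, Cd3g and Cd8a averaged under 1 FPKM. Sums of the myeloid, red cell, NK and stromal lists were at most 8.20 FPKM in any library, and S100a8, S100a9, Mpo, Ncr1, Nkg7, Gzma, Col1a1, Dcn and Pdgfrb were listed at 0 in all 10. The lower levels of B cell markers, and of plasma cell markers other than Xbp1, move with the group. Their part in the results below was not tested.

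Nuclear respiratory chain genes were higher in IgG1 than in IgM plasma cells across all 5 complexes. Of the 86 genes, 78 had a mean of at least 1 FPKM and were tested with limma on log2(FPKM + 1) over all 9900 such genes. At an adjusted p under 0.05, 72 of the 78 rose in IgG1 cells, where 18.1% of all tested genes were higher, and 0 fell, where 20.2% of all tested genes were lower. Their median log2 difference, IgG1 minus IgM, was 0.47, a fold of 1.39 in FPKM + 1, and that of all tested genes was -0.05. In 67 of the 78, every IgG1 library lay above every IgM library. This held for 13.1% of all tested genes and for 38.8% of other genes with a mean of 50 FPKM or more. The other 5 that passed, Ndufa6, Ndufa7, Ndufb3, Ndufv1 and Sdha, had overlapping groups. These are bulk samples, in which fewer cells of a type and less RNA per cell cannot be told apart.

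**Figure D1:**
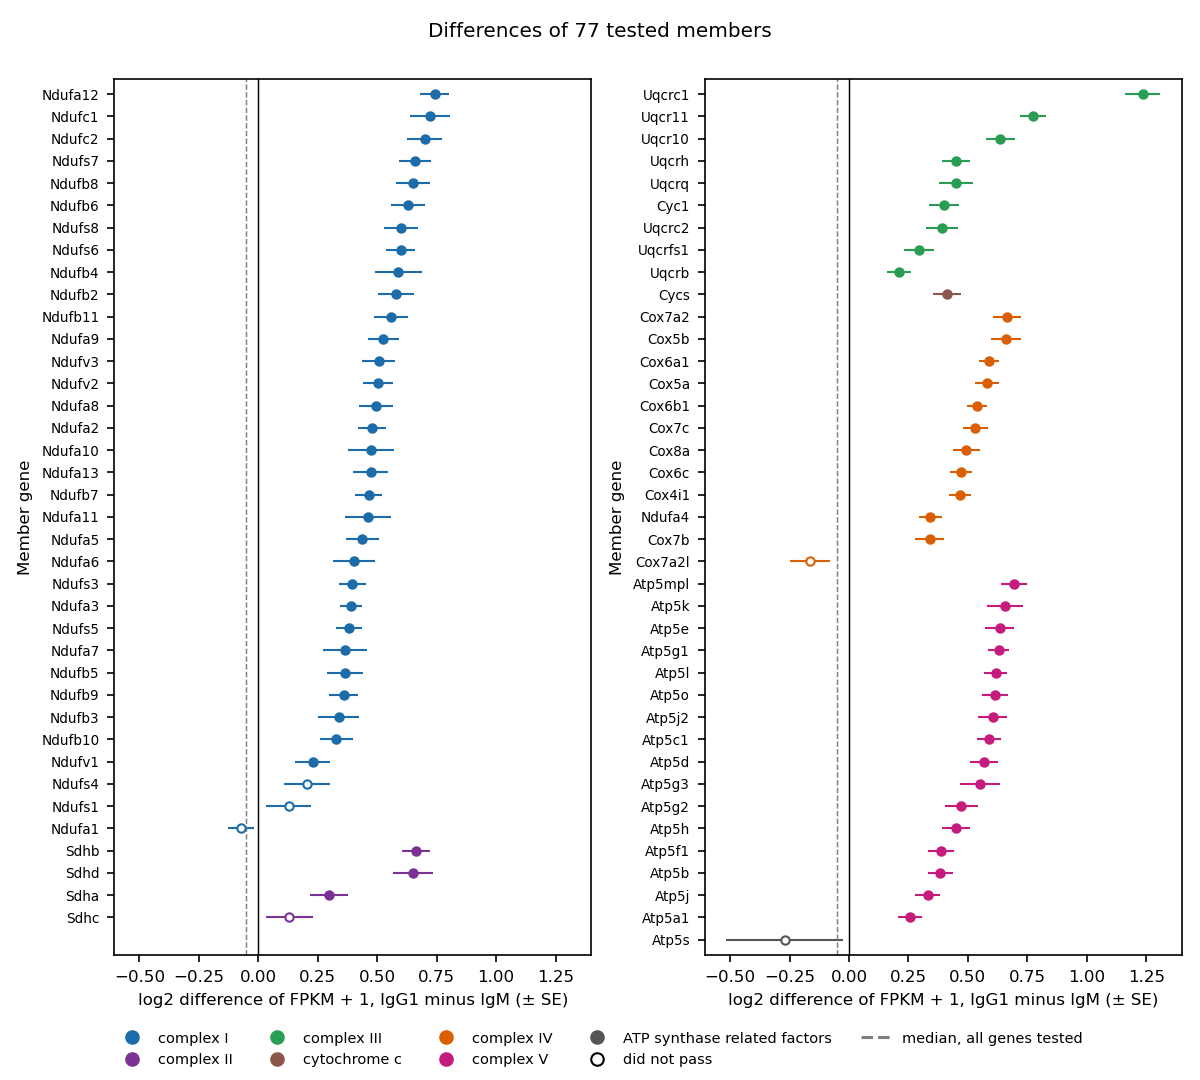
Log2 difference of FPKM + 1 (x axis, IgG1 minus IgM, points with SE) for 77 of the 78 tested genes (y axis), coloured by complex, with filled points for genes that passed and the dashed line at the median of all tested genes. Uqcrc1 stands at 1.24, the other 70 filled points lie between 0.21 and 0.77, and the 6 open points, Ndufs4, Ndufs1, Ndufa1, Sdhc, Cox7a2l and Atp5s, lie between -0.27 and 0.20.

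The differences were small per gene and wide in reach. The quartiles of the 78 log2 differences were 0.37 and 0.60, against -0.41 and 0.27 for all tested genes. Summed over the 86 genes, FPKM was 18140, 17520, 19130, 17860 and 17710 in the IgM libraries and 24940, 24500, 24290, 27490 and 25590 in the IgG1 libraries. The groups did not overlap, and the ratio of their means was 1.40. FPKM is a share of each library, in which immunoglobulin RNA takes a large and unequal part. As a percent of the FPKM outside immunoglobulin genes, the 86 genes held 3.61% ± 0.0720 in IgM against 4.98% ± 0.136 in IgG1 libraries (± SD over 5), with 3.57% to 3.74% and 4.86% to 5.21% as the ranges. Under quantile normalization, which moved the median of all genes from -0.05 to 0.06 and the count of all genes from 1791 higher and 2001 lower to 2182 higher and 1510 lower, the nuclear respiratory genes stood 0.41 above the median of all genes, and they stood 0.52 above it in the values as deposited.

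**Figure D2:**
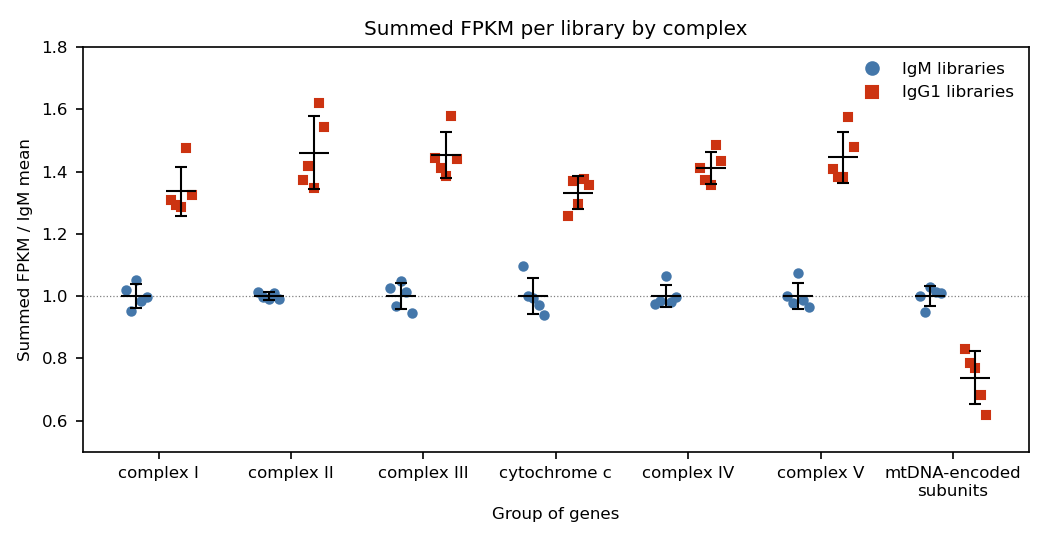
Summed FPKM of each complex relative to its IgM mean (y axis, linear, starting at 0.5), with a point per library and black marks for mean and SD of the 5 IgM and 5 IgG1 libraries, for the nuclear genes by complex and for the mitochondrially encoded subunits. In all nuclear complexes the IgG1 points lie above the IgM points, with ratios of means from 1.33 to 1.46, and the mitochondrially encoded sum lies lower in IgG1, at 0.737.

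Many respiratory chain promoters are known to hold sites for NRF1, GABPA, an ETS factor, and YY1. RefSeq promoter windows on GRCm38.p6, from 250 bases before to 50 after a gene's start, were matched for 69 of the 86 genes, and 5 short motifs were searched as exact letters on both strands. The NRF1 motif GCGCANGCG was in 30.4% of the 69 genes, in 17.7% of 7434 tested genes with a window and in 7.03% of all 27025 genes with one. The ETS motif CCGGAAG was in 23.2%, 24.6% and 9.93% of these, and the YY1 motif AANATGGCG in 14.5%, 7.55% and 2.76%. For CCCGCCC, an Sp site, the shares were 34.8%, 53.2% and 27.9%, and for CCAAT they were 44.9%, 43.9% and 41.1%. Of all 32851 windows of the table, 6.25%, 8.86%, 2.38%, 25.6% and 37.4% held the 5 motifs in that order. GCGCANGCG can match both strands at overlapping positions when its N is T and a C follows, and the other motifs were counted without regard to overlap. A match is a description of letters and not a bound site, and factor binding was not measured in these libraries. To show where such matches lie, these are the bases upstream of 5 genes that rose, in each complex the one with the smallest p whose upstream bases, free of other annotated genes, hold an NRF1 match. No complex III gene met this. Capitals mark NRF1 and ETS matches, and each run is 5′ to 3′ on the gene's strand.
Ndufs5 (chr4:123718203-123718436, minus strand): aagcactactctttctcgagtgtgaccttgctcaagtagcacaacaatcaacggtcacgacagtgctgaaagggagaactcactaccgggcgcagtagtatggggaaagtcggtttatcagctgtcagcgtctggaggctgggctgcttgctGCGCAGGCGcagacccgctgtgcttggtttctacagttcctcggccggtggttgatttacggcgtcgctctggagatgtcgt
Sdha (chr13:74350281-74350308, minus strand): ggaggggcgtgttGCGCAGGCGcagaat
Cycs (chr6:50566570-50566642, minus strand): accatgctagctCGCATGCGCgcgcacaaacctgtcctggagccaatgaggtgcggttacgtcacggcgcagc
Cox6a1 (chr5:115348982-115349129, minus strand): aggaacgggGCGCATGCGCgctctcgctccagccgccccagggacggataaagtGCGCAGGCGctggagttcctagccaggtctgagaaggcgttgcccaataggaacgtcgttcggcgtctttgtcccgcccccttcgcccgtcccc
Atp5l (chr9:44920743-44920992, minus strand): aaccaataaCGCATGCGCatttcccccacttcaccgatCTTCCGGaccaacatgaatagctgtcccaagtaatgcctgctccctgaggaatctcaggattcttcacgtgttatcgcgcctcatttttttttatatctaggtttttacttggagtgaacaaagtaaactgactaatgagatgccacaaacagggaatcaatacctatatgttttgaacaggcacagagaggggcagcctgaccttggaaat
Counted back from the RefSeq start, the NRF1 match lay 98 to 90 bases upstream in Ndufs5, 55 to 47 in Sdha, 61 to 53 in Cycs and 241 to 233 in Atp5l. In Cox6a1, forward matches lay 162 to 154 and 117 to 109 bases upstream, and a reverse match at 161 to 153 overlaps the first of these. Atp5l also held an ETS match 212 to 206 bases upstream. Genes with an NRF1 match anywhere in the window (21 tested) had a median log2 difference of 0.55, and those without one (44 tested) had 0.50. The ranges for NRF1 overlapped, at 0.30 to 1.24 with and -0.27 to 0.74 without a match. With an ETS match the median was 0.59 (16 tested), without one 0.49 (49 tested), and the ranges overlapped, at 0.33 to 0.77 and -0.27 to 1.24. For YY1 the medians were 0.54 with and 0.50 without a match, and for CCAAT 0.55 and 0.47. For the Sp motif the order was the other way, at 0.47 with and 0.55 without a match. Whether any motif goes with the size of the difference was not tested.

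Complex I, the NADH dehydrogenase, had 35 genes tested, of which 32 rose in IgG1 cells, with a median log2 difference of 0.47. Its 7 nuclear core subunits carry the redox centres and its accessory subunits surround them. Of the core genes 6 of 7 rose (median 0.40), and of the accessory genes 26 of 28 (median 0.47). Complex I as a sum had 5731 ± 215 FPKM in IgM against 7661 ± 451 FPKM in IgG1 libraries (± SD over 5), a ratio of 1.34 with no overlap. Mean levels over all libraries ran from 31.9 FPKM for Ndufa11 to 935 FPKM for Ndufa1, and the 32 that rose had differences from 0.23 for Ndufv1 to 0.74 for Ndufa12. Differences in parentheses are those of log2(FPKM + 1), IgG1 minus IgM, with their SE and limma's adjusted p over all tested genes, and a pair of levels joined by "to" gives the IgM mean and then the IgG1 mean.

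Ndufa12 (chr10:94198720-94221443, plus strand), an accessory subunit, had the smallest p of the complex. It was at 156, 159, 152, 168 and 163 FPKM in the IgM libraries and 258, 263, 241, 301 and 279 FPKM in the IgG1 libraries. All IgG1 libraries lay above all IgM libraries (0.74 ± 0.06 SE in log2, adjusted p = 3.81e-08). Ndufs7, a core subunit that holds the last iron-sulfur cluster before ubiquinone, was at 108, 97.5, 98.3, 93.1 and 85.4 FPKM in the IgM libraries and 161, 149, 146, 156 and 149 FPKM in the IgG1 libraries. Again the groups were apart (0.66 ± 0.07 SE in log2, adjusted p = 4.5e-07). Ndufs6, a zinc-binding accessory subunit, averaged 154 ± 10.7 in IgM against 234 ± 12.9 FPKM in IgG1 libraries (± SD over 5), also without overlap (0.60 ± 0.06 SE in log2, adjusted p = 4.98e-07). Ndufs5, whose upstream sequence is shown above, averaged 211 ± 14.5 in IgM against 275 ± 7.04 FPKM in IgG1 libraries (0.38 ± 0.05 SE in log2, adjusted p = 2.02e-05).

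The most abundant complex I gene did not follow. Ndufa1 (chrX:37187588-37191163, minus strand), a small membrane subunit needed for assembly of the complex, was at 1008, 865, 1022, 967 and 929 FPKM in the IgM libraries and 851, 875, 879.9, 1030 and 925 FPKM in the IgG1 libraries. The groups overlapped, and the gene did not pass (-0.07 ± 0.05 SE in log2, adjusted p = 0.323); under quantile normalization its sign turned, at 0.12. The core subunit Ndufs1, which holds several iron-sulfur clusters, and the accessory subunit Ndufs4 did not pass either. Ndufs1 averaged 48.2 ± 2.94 in IgM against 53.1 ± 7.43 FPKM in IgG1 libraries (± SD over 5; 0.13 ± 0.09 SE in log2, adjusted p = 0.309), and Ndufs4 averaged 34.9 ± 3.02 in IgM against 40.4 ± 4.09 FPKM in IgG1 libraries (0.20 ± 0.10 SE in log2, adjusted p = 0.102). With the trends of transcript length and GC content removed per library, Ndufs4 passed at a log2 difference of 0.33 and an adjusted p of 0.011. These and the other genes named outside the fixed choice of genes were picked after their values were seen.

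Core subunits of the NADH-oxidising tip differed from one another in size of change. Ndufv2 averaged 126 ± 9.46 in IgM against 179 ± 8.07 FPKM in IgG1 libraries (0.50 ± 0.06 SE in log2, adjusted p = 4.89e-06). Ndufv1, which binds NADH and the flavin, averaged 69.4 ± 5.04 in IgM against 81.5 ± 5.52 FPKM in IgG1 libraries, with overlapping groups (0.23 ± 0.07 SE in log2, adjusted p = 0.0215). The Ndufv1 call was the least firm of the 72: its adjusted p was 0.0587 without IgM replicate 5, 0.0545 without IgG1 replicate 4, 0.0685 without a filter on low values, 0.111 under quantile normalization and 0.0522 with plain eBayes, and its difference was -0.01 with length and GC trends removed. Among the core subunits of the arm that leads to ubiquinone, Ndufs8 went from 154 to 235 FPKM and Ndufs3 from 86.3 to 114 FPKM, and both rose without overlap, at log2 differences of 0.60 and 0.40. By symbol family, both Ndufc genes rose (0.72 for Ndufc1, 0.70 for Ndufc2), 10 of 10 Ndufb genes rose with a median of 0.51, 11 of 12 Ndufa genes with 0.47, and 9 of 11 Ndufs and Ndufv genes with 0.40.

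Complex II, succinate dehydrogenase, links the citric acid cycle to the chain and is encoded in the nucleus alone. Of its 4 genes 3 rose in IgG1 cells, and the subunits moved unequally. Sdhb, the iron-sulfur subunit, was at 184, 169, 174, 178 and 169 FPKM in the IgM libraries and 277, 261, 254, 302 and 292 FPKM in the IgG1 libraries. Sdhd, a membrane anchor, was at 92.8, 95.8, 94.9, 107 and 101 FPKM in the IgM libraries and 129.7, 147, 152, 190.3 and 161 FPKM in the IgG1 libraries. Both had IgG1 libraries above all IgM libraries (Sdhb: 0.66 ± 0.06 SE in log2, adjusted p = 7.74e-08; Sdhd: 0.65 ± 0.08 SE in log2, adjusted p = 7.5e-06). Sdha, the flavin subunit that oxidises succinate, was at 82.1, 94.97, 78.5, 79.3 and 85.8 FPKM in the IgM libraries and 101, 115, 88.5, 105 and 109 FPKM in the IgG1 libraries. Its lowest IgG1 library lay below 1 of the IgM libraries, and it passed with a smaller difference (0.30 ± 0.08 SE in log2, adjusted p = 0.00599). Sdhc, the other membrane anchor, was at 47.7, 40.1, 50.02, 41.1 and 41.1 FPKM in the IgM libraries and 42.1, 46.2, 44.99, 52.2 and 56.2 FPKM in the IgG1 libraries, with overlapping groups, and did not pass (0.13 ± 0.10 SE in log2, adjusted p = 0.313). The ratio of Sdhb to Sdhc FPKM was 3.47 to 4.33 in the IgM and 5.2 to 6.58 in the IgG1 libraries, a ratio chosen after the values were seen. Summed, the complex went from 401 ± 4.60 to 586 ± 47.0 FPKM (SD, n = 5 each), 1.46 times.

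Complex III, the cytochrome bc1 complex, had 9 of 9 nuclear genes higher in IgG1 cells, with a median of 0.45. All 9 were without overlap, which held for 13.1% of all tested genes and 38.8% of other genes at 50 FPKM or more. Uqcrc1 (chr9:108936633-108949623, plus strand), a core subunit of the matrix side, had the largest difference of all 78 genes tested. It was at 108, 103, 85.7, 99.6 and 108 FPKM in the IgM libraries and 264, 240.3, 222, 253 and 216 FPKM in the IgG1 libraries. The lowest IgG1 library was 2.0 times the highest IgM library (1.24 ± 0.07 SE in log2, adjusted p = 1.3e-09). Its partner core subunit Uqcrc2 was at 87.95, 79.2, 85.2, 74.5 and 82.7 FPKM in the IgM libraries and 115, 111, 100.5, 105 and 107 FPKM in the IgG1 libraries. It too rose without overlap, by less (0.39 ± 0.07 SE in log2, adjusted p = 0.000149). The ratio of Uqcrc1 to Uqcrc2 was 1.01 to 1.34 in the IgM and 2.03 to 2.40 in the IgG1 libraries. Uqcrc1 did not account for the sum over all genes, whose ratio of means was 1.40 with it as well as without it.

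Within complex III, 2 small subunits came next in size of change. Uqcr11 was at 326, 286, 323, 294 and 292 FPKM in the IgM libraries and 523, 514, 475, 576 and 518 FPKM in the IgG1 libraries, with the groups apart (0.77 ± 0.06 SE in log2, adjusted p = 1.03e-08). Uqcr10 averaged 313 ± 27.1 in IgM against 486 ± 27.9 FPKM in IgG1 libraries (0.64 ± 0.06 SE in log2, adjusted p = 1.96e-07). Uqcrq, the most abundant gene of the complex, was at 465, 407, 460.0, 452 and 375 FPKM in the IgM libraries and 596, 534, 546, 691 and 586 FPKM in the IgG1 libraries, without overlap (0.45 ± 0.07 SE in log2, adjusted p = 0.000132). The nuclear-encoded electron carriers of the complex rose too, while the mitochondrially encoded carrier gene mt-Cytb fell from 1909 to 1317 FPKM. Cyc1, the cytochrome c1 that hands electrons to cytochrome c, was at 89.7, 96.95, 89.9, 89.9 and 95.2 FPKM in the IgM libraries and 133, 123, 115, 119 and 120.1 FPKM in the IgG1 libraries (0.40 ± 0.06 SE in log2, adjusted p = 5.16e-05). Uqcrfs1, the Rieske iron-sulfur protein, went from 145 to 178 FPKM at a log2 difference of 0.30. Uqcrb, another small subunit, had the smallest change of the complex, at 0.21. Uqcrh, the acidic hinge protein at the cytochrome c side, went from 264 to 362 FPKM (0.45 ± 0.06 SE in log2, adjusted p = 8.16e-06). Cytochrome c itself, from the somatic gene Cycs, was at 134, 122, 122, 119 and 115 FPKM in the IgM libraries and 154, 168, 158, 168 and 166 FPKM in the IgG1 libraries. All IgG1 libraries lay above all IgM libraries (0.41 ± 0.06 SE in log2, adjusted p = 2.38e-05).

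**Figure D3:**
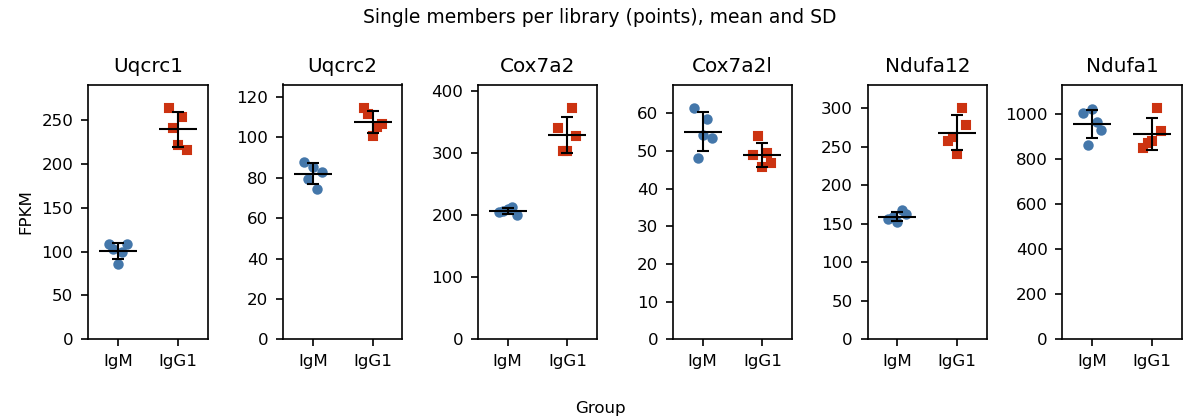
FPKM (y axes, linear from 0, each with its own scale) of 6 genes in the 5 IgM and 5 IgG1 libraries (points), with mean and SD. Uqcrc1, Uqcrc2, Cox7a2 and Ndufa12 lie higher in every IgG1 library than in any IgM library, and Cox7a2l and Ndufa1 overlap between groups.

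Complex IV, cytochrome c oxidase, had 20 genes, of which 12 were tested and 11 rose, with a median of 0.51. The 8 not tested were all forms used in particular tissues or states: Cox4i2, Cox6a2, Cox6b2, Cox7a1 and Ndufa4l2 averaged at most 0.970 FPKM in either group, and Cox7b2, Cox8b and Cox8c were listed at 0 in all libraries. Cox4i2, a form known from lung and low oxygen, averaged 0.970 FPKM in IgM and 0.891 in IgG1 cells, and Cox7a1, the heart and muscle form, 0.262 and 0.798. Cox4i1, Cox6a1, Cox6b1, Cox8a and Ndufa4 each held at least 99.66% of the FPKM of their own set of paralogs in every library.

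Cox6a1, which had the smallest p of the complex and whose upstream matches are shown above, was at 506, 488, 536, 501 and 492 FPKM in the IgM libraries and 758, 731, 732, 791 and 789 FPKM in the IgG1 libraries. The groups were apart (0.59 ± 0.04 SE in log2, adjusted p = 9.9e-09). Cox6b1, on the side facing the intermembrane space, averaged 401 ± 18.5 in IgM against 582 ± 11.2 FPKM in IgG1 libraries, and Cox5a, on the matrix side, averaged 294 ± 12.02 in IgM against 441 ± 23.3 FPKM in IgG1 libraries (± SD over 5), at log2 differences of 0.54 and 0.58 (SE 0.04 and 0.05, adjusted p = 3.44e-08 and 6.57e-08). Cox4i1, the regulatory subunit that is present in most tissues, was at 506, 553, 556, 503 and 529.8 FPKM in the IgM libraries and 761, 701, 709, 779.6 and 710.1 FPKM in the IgG1 libraries (0.47 ± 0.05 SE in log2, adjusted p = 3.54e-07). Cox8a averaged 441 ± 27.2 in IgM against 621 ± 47.4 FPKM in IgG1 libraries (0.49 ± 0.06 SE in log2, adjusted p = 2.24e-06). Ndufa4, now counted with complex IV despite its name, was the most abundant of these genes, at 706, 726, 835, 681 and 743 FPKM in the IgM libraries and 901, 921, 931, 964 and 950.1 FPKM in the IgG1 libraries. It rose without overlap and by less than the others named here (0.34 ± 0.05 SE in log2, adjusted p = 2.4e-05).

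The Cox7a paralogs moved unequally. Cox7a2, the subunit of cytochrome c oxidase itself, was at 206, 207, 209.6, 213 and 200.2 FPKM in the IgM libraries and 341, 303, 304, 373 and 328 FPKM in the IgG1 libraries. It had the largest difference of complex IV (0.67 ± 0.06 SE in log2, adjusted p = 8.87e-08). Cox7a2l (chr17:83501918-83517330, minus strand), a related protein known for joining complexes III and IV into supercomplexes, was at 61.5, 48.1, 54.1, 58.5 and 53.4 FPKM in the IgM libraries and 49, 53.9, 45.8, 49.5 and 46.8 FPKM in the IgG1 libraries. The groups overlapped, and the gene did not pass (-0.16 ± 0.08 SE in log2, adjusted p = 0.135). With length and GC trends removed it was called lower in IgG1 cells, at -0.26 and an adjusted p of 0.0164. Cox7a2l held 18.9% to 23.0% of the FPKM of Cox7a1, Cox7a2 and Cox7a2l in the IgM and 11.7% to 15.1% in the IgG1 libraries, and Cox7a2 held 76.9% to 81.0% and 84.9% to 88.1%. The remaining complex IV genes, Cox5b, Cox6c, Cox7b and Cox7c, all rose without overlap, Cox5b from 259 to 409 FPKM with 0.66, Cox7c with 0.53, Cox6c with 0.47 and Cox7b with 0.34. The Cox7a shares do not depend on how libraries are scaled to each other.

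Complex V, the ATP synthase, had 16 of 16 nuclear subunit genes higher in IgG1 cells, with a median of 0.58. All 16 were without overlap, against 13.1% of all tested genes and 38.8% of other genes at 50 FPKM or more. The F1 part, alpha to epsilon, whose head makes the ATP, had 5 of 5 higher with a median of 0.57. The other subunits, of the membrane part and the outer stalk, had 11 of 11 with 0.60. Summed FPKM went from 5490 ± 234 to 7934 ± 450 (SD, n = 5 each), 1.45 times. Atp5e, the small epsilon subunit of F1 and the most abundant gene of the complex, was at 632, 603, 714, 588 and 577 FPKM in the IgM libraries and 1014, 884, 923, 1075 and 936 FPKM in the IgG1 libraries (0.63 ± 0.06 SE in log2, adjusted p = 3.44e-07). The catalytic beta subunit Atp5b went from 490.4 to 642 FPKM and the alpha subunit Atp5a1 from 276 to 330.1 FPKM, at 0.38 and 0.26, and Atp5a1 had the smallest difference of the 16. Atp5c1, the turning gamma subunit, averaged 270.2 ± 14.7 in IgM against 407 ± 14.9 FPKM in IgG1 libraries (0.59 ± 0.05 SE in log2, adjusted p = 5.24e-08).

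In the membrane part, Atp5g1, Atp5g2 and Atp5g3 encode the same mature c subunit of the rotor ring, with different import sequences. Atp5g1 was at 462, 456, 493, 502 and 477 FPKM in the IgM libraries and 712, 731, 724, 796 and 740.4 FPKM in the IgG1 libraries, without overlap (0.63 ± 0.04 SE in log2, adjusted p = 7.91e-09). Atp5g3 was at 435, 389, 436, 392 and 403 FPKM in the IgM libraries and 487, 631, 553, 678 and 682 FPKM in the IgG1 libraries (0.55 ± 0.08 SE in log2, adjusted p = 0.000158). Atp5g2 was at 165, 164, 169, 172 and 139 FPKM in the IgM libraries and 219, 206, 212, 244 and 245 FPKM in the IgG1 libraries (0.47 ± 0.07 SE in log2, adjusted p = 2.87e-05). All 3 rose, and their shares of c subunit FPKM overlapped between groups: 45.5% ± 1.47 and 47.2% ± 2.23 for Atp5g1, 15.4% ± 1.04 and 14.3% ± 0.838 for Atp5g2, and 39.1% ± 1.56 and 38.4% ± 2.68 for Atp5g3 in IgM and IgG1 libraries (SD, n = 5 each). Genes with near-identical copies elsewhere in the genome, as the c subunit genes are known to have, could have their reads divided by the authors' counting.

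Atp5mpl, a small proteolipid of the synthase, was at 320.4, 335, 336, 327 and 308 FPKM in the IgM libraries and 497, 521, 482, 593 and 543 FPKM in the IgG1 libraries. It had the largest difference of the complex (0.69 ± 0.05 SE in log2, adjusted p = 2.67e-08). Atp5l, the g subunit at the dimer interface, whose upstream bases are shown above, averaged 263 ± 11.4 in IgM against 404 ± 18.3 FPKM in IgG1 libraries (± SD over 5; 0.62 ± 0.05 SE in log2, adjusted p = 2.88e-08). Atp5j, a coupling factor of the stalk, averaged 559 ± 39.9 in IgM against 704 ± 41.1 FPKM in IgG1 libraries (0.33 ± 0.05 SE in log2, adjusted p = 7.31e-05). Its gene overlaps Gabpa on the genome, and because the kit keeps no strand, reads of the 2 genes cannot be told apart where they overlap. Of the other stalk and membrane genes, Atp5k rose from 262 to 413 FPKM and Atp5j2 from 286 to 436 FPKM, both on the membrane side. Atp5o, which holds the head to the stalk, rose from 257 to 394 FPKM, and the stalk subunits Atp5h and Atp5f1 rose from 461 to 631 FPKM and from 209 to 273 FPKM. In F1, Atp5d, the delta subunit, rose from 157 to 234 FPKM at 0.57. Of the 86 genes, 35 overlap some other gene, and 17 overlap one with a mean of at least 1 FPKM. Besides Atp5j, the 17 include Ndufs1, Ndufs3, Ndufs6, Cox4i1, Cox6c, Atp5a1 and Atp5f1. Their values carry the same limit where the genes overlap. Atp5s, the factor kept apart from the subunits, was at 6.44, 2.57, 3.92, 4.40 and 3.33 FPKM in the IgM libraries and 1.85, 2.11, 3.94, 3.53 and 5.04 FPKM in the IgG1 libraries, did not pass and had the lowest log2 difference of the 78 (-0.27 ± 0.25 SE in log2, adjusted p = 0.411).

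**Figure D4:**
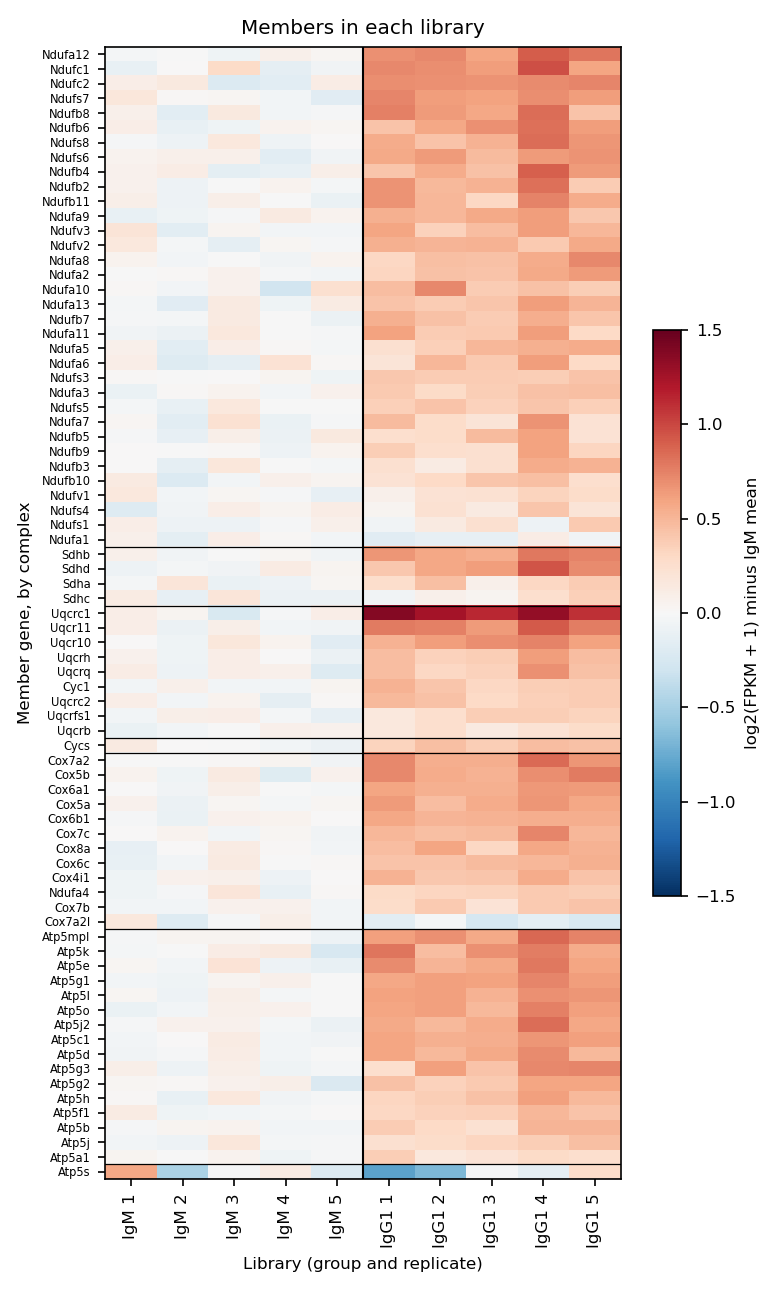
Log2 of FPKM + 1 minus the gene's mean over the IgM libraries (colour) for 77 of the 78 tested genes (rows, by complex) in each of the 10 libraries (columns). The IgG1 columns are red for most genes, with Ndufa1, Cox7a2l and Atp5s among the rows that are not, and IgG1 replicate 4 has the highest column median, 0.62.

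Within each group the libraries lay close together. The median of the tested genes' log2 values, each minus its IgM mean, lay between -0.04 and 0.07 in the IgM libraries and between 0.43 and 0.62 in the IgG1 libraries. IgM replicate 3 was the highest of its group and IgG1 replicate 4 of the other. In single IgG1 libraries, 73 to 76 of the 78 genes lay above their IgM mean.

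The respiratory genes are short and abundant: the 78 have a median transcript length of 751 bases and a median level of 220.0 FPKM, against 2410 bases and 11.1 FPKM for all tested genes. Outside the group, too, the share of genes that rose in IgG1 cells was larger among short and among abundant genes. Of 1501 other tested genes with transcripts under 1000 bases, 454 rose (30.3%) and 180 fell, and of 8297 longer ones 1262 rose (15.2%) and 1814 fell. Among those with a mean of 50 FPKM or more, 47.0% rose and 20.3% fell, against 11.4% and 20.4% of lower ones. Of 547 other genes that were both short and at 50 FPKM or more, 51.7% rose and 14.6% fell, with a median log2 difference of 0.30. In 43.5% of these 547, every IgG1 library lay above every IgM library. Of the nuclear respiratory genes, 49 of 50 under 1000 bases rose, with a median of 0.52, and 23 of 28 longer ones rose, with a median of 0.39. Over the 78 genes, which share the same libraries, the difference had a Pearson correlation of -0.20 with log2 transcript length, 0.39 with GC content and 0.40 with log2 mean FPKM (Spearman -0.21, 0.28 and 0.29), given as descriptions. With the trends of length and GC content removed per library, 66 of the 78 rose, 1 fell, Cox7a2l, and the median was 0.37, where that of all genes was -0.06; 65 of the 72 calls remained.

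**Figure D5:**
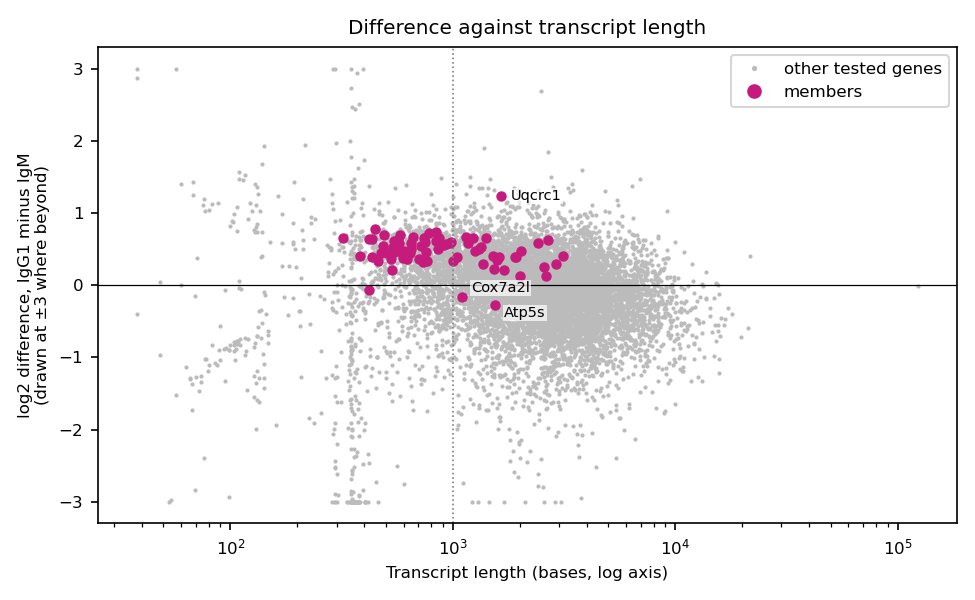
Log2 difference, IgG1 minus IgM (y axis, values beyond 3 in size drawn at 3), against transcript length in bases (x axis, log scale) for the 78 nuclear respiratory genes (large points) and all other tested genes (grey), with a dotted line at 1000 bases. The respiratory genes lie mostly above 0 on both sides of the line, and Uqcrc1, Cox7a2l and Atp5s are named.

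None of the 13 mitochondrially encoded subunits rose in IgG1 cells, and 6 fell, namely mt-Cytb, mt-Nd5, mt-Nd6, mt-Nd4, mt-Co2 and mt-Co1, where 20.2% of all tested genes fell. The other 7 did not pass, mt-Nd3 (0.43) and mt-Co3 (0.15) among them, and the median log2 difference over the 13 was -0.37. With length and GC trends removed 2 rose and 4 fell (median -0.07). Leaving out IgM replicate 2 gave 1 higher and 5 lower, quantile normalization 1 and 6, and without IgM replicate 5 the median was -0.24. The mt-Co1 call was lost when any IgM library, IgG1 replicate 4 or IgG1 replicate 5 was left out, without a filter on low values, under median-ratio scaling and quantile normalization and with length and GC trends removed, and mt-Co2 was lost with length and GC trends removed. The ratio of nuclear to mitochondrially encoded FPKM sums was 3.30, 3.37, 3.39, 3.21 and 3.19 in the IgM and 5.47, 5.67, 5.75, 7.35 and 7.53 in the IgG1 libraries, in which mt-Co1 also split, with IgG1 replicates 4 and 5 at 720.2 and 721 FPKM and the other 3 at 1163 to 1230. Most of the mitochondrially encoded sum came from mt-Cytb, mt-Co1 and mt-Nd1, at 1909, 1450 and 1003 FPKM in IgM and 1317, 1010 and 956 FPKM in IgG1 libraries. By contrast mt-Co2, mt-Co3 and mt-Atp6 averaged 19.8, 38.8 and 47.2 FPKM in IgM libraries. The sum and the ratio thus follow few genes, and why these levels are so uneven was not tested.

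Other genes that serve the same machinery moved less uniformly. Of 3 subunit or inhibitor genes outside the symbol rule, Usmg5, Ndufab1 and Atpif1, all rose, and Usmg5, a small subunit of the ATP synthase, went from 582 to 898 FPKM (0.63 ± 0.06 SE in log2, adjusted p = 9.84e-07). Of 18 complex I assembly factors 6 rose and 1 fell (median 0.20). Ndufaf2, a late assembly factor, averaged 18.7 ± 1.45 in IgM against 33.6 ± 4.77 FPKM in IgG1 libraries (0.80 ± 0.11 SE in log2, adjusted p = 2.17e-05), Dmac1, Ndufaf8 and Ndufaf7 rose by 0.52, 0.70 and 0.56, and Dmac2 fell by 0.73 on the log2 scale. Without a filter on low values 4 of these factors rose and 0 fell. Of the complex II assembly factors 1 of 4 rose, Sdhaf4 (0.38), of those of complex III 1 of 6, Uqcc2 (0.68), and of those of complex V 1 of 2, Atpaf2 (0.59). Of 23 complex IV assembly factors 10 rose and 0 fell (median 0.19), among them the copper chaperone Cox17 (376 to 499.5 FPKM, log2 difference 0.41), Coa3 (0.41), Cmc2 (0.61) and Coa7 (0.97). Without a filter 5 of the complex IV factors rose, with length and GC trends removed 6, and 1 factor fell without IgG1 replicate 2 or 5, with plain eBayes, with array weights and when scaled to the total outside immunoglobulin genes. The Sdhaf4 call was lost without a filter, with plain eBayes and without IgM replicate 2, IgG1 replicate 4 or IgG1 replicate 5. Where 18.1% of all tested genes rose, the assembly lists thus stood at 16.7% to 50%.

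Of 19 carriers, channels and import genes of the mitochondrial membranes, 16 rose and 0 fell, with a median of 0.57. Of all tested genes 18.1% rose and 20.2% fell. Slc25a5, an exchanger of ADP for ATP across the inner membrane, was at 476, 482, 469.7, 500.1 and 498 FPKM in the IgM libraries and 691, 706, 727, 739.8 and 740.0 FPKM in the IgG1 libraries. The groups were apart (0.57 ± 0.04 SE in log2, adjusted p = 7.91e-09). Its paralog Slc25a4 went from 35.9 to 65.4 FPKM, the outer membrane import pore Tomm40 from 34.3 to 58.5 FPKM and the inner membrane import subunit Timm17a from 82.7 to 127 FPKM, at log2 differences of 0.85, 0.75 and 0.62.

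Known regulators of respiratory genes and of mitochondrial DNA gave shares near those of all tested genes: of 14 tested, 2 rose and 2 fell (14.3% each way, against 18.1% and 20.2% of all genes), with a median of -0.09. Gabpa, the DNA-binding part of the ETS factor whose motif was searched, was at 18.5, 20.5, 19.9, 20.2 and 16.9 FPKM in the IgM libraries and 14.5, 10.7, 13.9, 13.7 and 11.3 FPKM in the IgG1 libraries, so all IgG1 libraries lay below the IgM libraries (-0.56 ± 0.12 SE in log2, adjusted p = 0.0017), with the overlap with Atp5j named above. Its partner Gabpb1 rose from 33.3 to 41.02 FPKM (0.29 ± 0.10 SE in log2, adjusted p = 0.0301). Nrf1 was at 21, 20.3, 20.4, 21.2 and 20.6 FPKM in the IgM libraries and 25.4, 22.6, 20.5, 22 and 23.8 FPKM in the IgG1 libraries, with overlapping groups (0.13 ± 0.10 SE in log2, adjusted p = 0.322). The mitochondrial transcription factor genes Tfb1m and Tfb2m went opposite ways, at 0.48 and -0.50. Gabpa kept its call under every alternative. Gabpb1 lost its call when IgM replicate 2, 4 or 5 or any IgG1 library but replicate 1 was left out, Tfb1m when IgM replicate 4 or 5 or IgG1 replicate 3 or 4 was, and Tfb2m when replicate 3 of either group was. Without a filter on low values Gabpb1, Tfb1m and Tfb2m all lost their calls, so that 0 regulators rose and 1 fell. Tfb1m also lost its call with plain eBayes, and Tfb2m under quantile normalization, where the list's median turned to 0.07, and with length and GC trends removed. Ppargc1a and Ppargc1b, coactivators known to drive mitochondrial genes in muscle and brown fat, were under 1 FPKM on average.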

How the data were processed

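RNA from 5 IgM and 5 IgG1 plasma cell libraries, grouped by sample title, had been extracted with the miRNeasy Micro kit and made into libraries with Takara's kit SMART-Seq mRNA HT LP, per the labels' protocols; this chemistry keeps no strand. The submitters' processing notes name HISAT2 2.1.0, Cufflinks 2.2.1, Cuffdiff and GRCm38, with no roles or settings. The deposited unit is FPKM per the file headers, which the authors scaled by transcript length and library; no scaling across libraries is named. FPKM holds no counts, so no counting interval is given, and depth was estimated from the steps of low values with fragments of 200 bases assumed.

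Of 47719 identifiers 47305 matched GENCODE. The test covered the 9900 genes that averaged 1 FPKM or more, on log2(FPKM + 1) with limma 3.58.1 in R 4.3.3 (trend and robust eBayes, group as the only term, two-sided), with Benjamini-Hochberg adjustment over all of them at 0.05. Transcript length was the median over GENCODE basic transcripts. The fit was checked only on simulated data with independent normal noise for each gene. Such data cannot show how the fit handles genes that vary together. Named genes are, per complex, the 3 with the smallest p among those passing in each direction and the most abundant one, the paralogs reaching 1 FPKM, Sdha to Sdhd, Cyc1 and Cycs, and up to 4 of each related list; the members and lists were chosen with earlier results of these data known. Alternatives were no filter or a minimum mean of 5 FPKM, pseudocounts of 0.1 and 5, quantile normalization, median-ratio scaling, scaling to the total outside immunoglobulin genes, removal of length and GC trends (natural splines, 4 degrees of freedom each, with values for 99.8% of tested genes), plain eBayes, array weights, a replicate block and each library left out. The main test used all 10 libraries, and the labels name no batch. The values of 1 tested gene are not reported here, and the gene stays in all counts, medians and sums.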

Additional observations from a re-analysis of the deposited data

Results flagged for a closer look

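In 8 of 176 sets of 5 libraries (a gene or a sum in 1 group), 1 library stood apart from the other 4 by Dixon's criterion (gap over range above 0.71), and chance alone gives about 1 in 20. The highest IgG1 library stood apart for Ndufa10 (80.0 FPKM, replicate 2), Cox7c (545.4 FPKM, replicate 4), Atp5j2 (509.7 FPKM, replicate 4) and the complex I sum (8452 FPKM, replicate 4). The highest IgM library stood apart for Atp5d (170.6 FPKM), Atp5j (628.9 FPKM) and the complex IV sum (4570 FPKM), all in replicate 3. For Atp5g2 the lowest IgM library stood apart, at 139.4 FPKM in replicate 5. IgG1 replicate 4 and IgM replicate 3 each account for 3 of the 8. Every one of these 6 genes kept its call when any 1 library was left out.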

How the results depend on the processing

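Under pseudocounts of 0.1 and 5, a minimum mean of 5 FPKM, array weights, median-ratio scaling and scaling to the total outside immunoglobulin genes, each of the 78 nuclear respiratory genes that was tested there kept its direction and its side of the threshold. Removing length and GC trends moved most: 1 gene fell, Cox7a2l of complex IV, the median over the genes was 0.37, and the medians of complexes I, II, IV and V were 0.33, 0.39, 0.45 and 0.42. Among the genes that no longer passed there were Ndufa11, Ndufb9, Ndufa13, Ndufb10 and Ndufa7, Ndufs4 and Cox7a2l newly passed, and Ndufv1 turned to -0.00765. Under quantile normalization Ndufa1 turned to 0.12 and Ndufv1 no longer passed. Without a filter the complex IV median was 0.47 over more genes, 69 of 83 genes rose, and Ndufb3, Ndufv1 and Ndufa7 no longer passed; this test of 24060 genes gave 1316 higher and 1502 lower. Plain eBayes lost Ndufv1 alone. With each library left out, 71 to 72 genes rose, 0 fell and the median ran from 0.46 to 0.50, and Ndufv1 was the 1 call lost. For the complexes the left-out ranges of the medians were 0.44 to 0.49 (I), 0.44 to 0.51 (II), 0.41 to 0.48 (III), 0.47 to 0.54 (IV) and 0.54 to 0.61 (V). With the replicate number as a block 72 genes rose, 0 fell and the median was 0.47, while mt-Co1 did not pass (adjusted p = 0.0867, limma). In deviations from their group means, same-numbered libraries correlated between -0.04 and 0.10, and 3 of 5 IgM libraries correlated best with their own number. The labels do not say whether the numbers pair libraries, and these correlations cannot decide it. The cause of these movements was not tested. The 8 untested complex IV genes had levels near 0 that support no comparison.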
